A study of Homo sapiens with 8 samples.

Results

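These are the genomic regions that held no ATF4 peak in any untreated library of 2 leukaemia cell lines, and that could therefore be gained with the drug in either line. ATF4 chromatin immunoprecipitation was followed by sequencing in Nalm6 and SUPB15, established lines of B-cell precursor acute lymphoblastic leukaemia (ALL), of which SUPB15 carries the BCR-ABL1 fusion. Each line was left untreated or given L-asparaginase at 1 IU/ml for 2 h, with 2 libraries in each of the 4 groups, and each library has its own deposited peak list. For Nalm6 the series speaks of independent experiments, and a further experiment per condition was not analysed here. Nothing says that the SUPB15 libraries came from separate cultures, so their spread may be technical. Peaks of all 8 lists that shared at least 1 bp were merged into 132657 regions on hg19. An untreated peak was present in 44816 of them, and the other 87841 (66.2%) were free beforehand. Of the free regions, 1678 (1.91%) were listed in both asparaginase libraries of each line and are called shared here. That number was 1039 and 266 when asparaginase peaks had to reach −log10 q of 5 and 10, and 2572 without SUPB15 asparaginase replicate 2.

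ATF4 is a basic leucine zipper transcription factor and the main effector of the integrated stress response. Its protein is made when amino acids run short, and it binds DNA with partners such as C/EBP proteins at composite elements near genes of amino acid synthesis, transport and tRNA charging. L-asparaginase breaks down extracellular asparagine and glutamine, on which ALL cells depend. The comparison asks whether, with the drug, ATF4 peaks were listed at the same places in both lines where no untreated list held one. Binding too weak to be listed is not seen. Regions carry no gene names and no sequence, because no hg19 annotation or genome was used here, and cell identity could not be checked on marker genes.

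The shared regions were chosen by peak presence in the 8 lists, so presence and its strength are described here with no test. Intervals are 95% Wilson intervals on shares and Woolf or Mantel-Haenszel intervals on odds ratios. They cover counting error over regions, which are not independent replicates, and say nothing of the spread between cultures.

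The lists differed in length before any comparison. With asparaginase the Nalm6 lists held 43376 and 48984 peaks and the SUPB15 lists 88302 and 41213. Untreated lists held 34825 and 36801 peaks in Nalm6 and 9575 and 9586 in SUPB15, so Nalm6 barred far more regions. Untreated peaks of Nalm6 alone barred 31507 regions, those of SUPB15 alone 5362, and 7947 had an untreated peak of each line. Most free regions were listed once: 69495 (79.1%) occurred in a single library, and 50079 (57.0%) only in SUPB15 replicate 1. Relative depth, read as the genome background of fragments per position, was 2.21 and 2.33 in Nalm6 with asparaginase and 4.19 and 3.93 in SUPB15 with asparaginase. In the untreated libraries it was 2.97 and 2.79 for Nalm6 and 4.08 and 3.90 for SUPB15.

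Regions in both Nalm6 lists were more often in both SUPB15 lists than regions in 1 Nalm6 list were. Of the free regions, 6347 (7.23%) were in both Nalm6 asparaginase lists and 12353 (14.1%) in both SUPB15 lists. Among the former, 1678 or 26.4% (25.4 to 27.5) were also in both SUPB15 lists, and a further 1074 (16.9%) were in 1 of them. Among the 10204 regions in only 1 Nalm6 list, 1066 or 10.4% (9.87 to 11.1) were in both SUPB15 lists. The share over all Nalm6-listed free regions was 16.6%. The odds ratio between repeat listing in Nalm6 and in SUPB15 was 3.08 (2.83 to 3.35) over these 16551 regions. SUPB15 asparaginase peaks bring no region into this set, while untreated peaks of either line bar regions from it. Regions only in Nalm6 replicate 1 reached 7.76% (6.87 to 8.76) and those only in replicate 2 11.6% (10.9 to 12.4), both below the share for both lists. With asparaginase peaks of −log10 q of at least 10 the odds ratio was 1.76, and 2.99 when the untreated lists met that threshold too.

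The same comparison from the side of SUPB15 gave smaller shares and a larger contrast. Of the 12353 regions in both SUPB15 lists, 13.6% (13.0 to 14.2) were in both Nalm6 lists. Of the 64079 regions in 1 SUPB15 list, 1.68% (1.58 to 1.78) were. Over all 76432 SUPB15-listed free regions the share was 3.6%, and the odds ratio was 9.22 (8.52 to 9.98). Regions only in SUPB15 replicate 1 and only in replicate 2 had shares with overlapping intervals, 1.72% (1.61 to 1.84) of 52137 and 1.48% (1.28 to 1.72) of 11942. With −log10 q of at least 10 the odds ratio was 3.20, and 3.14 when the untreated lists met that threshold too.

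Among regions with an asparaginase peak of each line, the link was weaker. There were 5142 such regions, of which 53.4% were in both SUPB15 lists and 53.5% in both Nalm6 lists. Listing in both SUPB15 lists was found at 60.97% (59.1 to 62.8) of the 2752 regions in both Nalm6 lists and at 44.6% (42.6 to 46.6) of the 2390 in 1 Nalm6 list, an odds ratio of 1.94 (1.74 to 2.17). When regions with untreated peaks are kept in, 24480 regions hold a peak of each line and the odds ratio of gain by gain is 2.60 (2.42 to 2.80). An untreated peak barred 19338 of those 24480 regions (79.0%) from gain in at least 1 line. Of the 21058 regions not gained in Nalm6, 8169 had an untreated SUPB15 peak, against 670 of the 3422 that were gained. An untreated peak of either line was present at 18668 of the 21058. Taking out all barred regions gave the lower odds ratio of 1.94, and the parts of the 2 lines' untreated peaks were not separated.

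Repeat listing within a line went up step by step with listing in the other line. In Nalm6, 31.5% (30.7 to 32.4) of the listed regions were in both lists when SUPB15 had no peak there. With 1 SUPB15 list it was 44.8% (42.8 to 46.8), and with both it was 61.2% (59.3 to 63.0). In SUPB15 these shares were 13.5% (13.2 to 13.7), 44.6% (42.6 to 46.6) and 60.97% (59.1 to 62.8). The shares of both lines with 1 and with 2 lists of the other come from the same 5142 regions, and they are close because 1074 regions lacked 1 SUPB15 list and 1066 lacked 1 Nalm6 list.

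**Figure D1:**
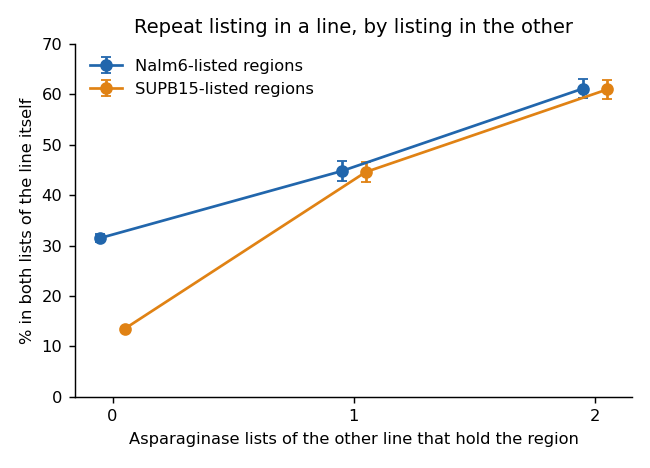
Share of free regions listed in a line (y axis, %) that were in both asparaginase lists of that line, by the number of lists of the other line with a peak there (x axis). Points are shares, bars 95% Wilson intervals. Both lines are near 45% at 1 list and 61% at 2 lists, and lie apart at 0 (31.5% in Nalm6, 13.5% in SUPB15).

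Single libraries showed the same order of overlap. Of the 9440 free regions of Nalm6 replicate 1, 67.2% were also in Nalm6 replicate 2, 32.9% in SUPB15 replicate 1 and 22.5% in SUPB15 replicate 2. Of the 13458 free regions of Nalm6 replicate 2, 47.2%, 31.8% and 20.9% were in the other 3 lists in the same order. SUPB15 replicate 2 held 24295 free regions, of which 50.8% were in its own replicate, 8.75% in Nalm6 replicate 1 and 11.6% in Nalm6 replicate 2. SUPB15 replicate 1 held 64490, of which 19.2% were in its replicate and 4.81% and 6.63% in the Nalm6 lists. In every list a larger share of regions recurred in the same line than in either list of the other line.

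Over all free regions the odds ratio was 2.38 (2.25 to 2.53), with 26.4% of the regions in both Nalm6 lists and 13.1% (12.9 to 13.3) of the other 81494 in both SUPB15 lists. This value depended on how the set was made, because a region enters it only with some asparaginase peak. Without SUPB15 replicate 1 or replicate 2 it became 0.162 and 0.0876, since a region outside the Nalm6 lists must then be in the remaining SUPB15 list. Counted over 1 kb tiles of the genome, empty tiles included, it was 102 (95.8 to 108). There, 1517 of 5869 tiles with both Nalm6 summits held both SUPB15 summits (25.8%), against 0.391% of all 3023192 tiles free of untreated peaks. Tiles that cannot be aligned to are in that total.

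The fold enrichment of a peak (column 7 of the lists) went with sharing in both lines. It is the pileup at the summit over its local background, each with a small constant added. Free regions were divided by the highest enrichment in a line's asparaginase lists, at 3, 4, 5, 6 and 8. Among regions in both Nalm6 lists, 10.9% (6.81 to 16.9) of the 147 below an enrichment of 3 were in both SUPB15 lists. The share was 15.4% from 3 to 4, 18.9% from 4 to 5, 26.4% from 5 to 6 and 34.4% from 6 to 8. It was 44.9% (41.1 to 48.7) in the 655 regions at 8 and above. Every step was upwards, and the highest bin still left most regions without repeat listing in SUPB15.

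Within bins of the highest enrichment, regions in both Nalm6 lists were shared more often than regions in 1 list. Of the latter, 4.43% were in both SUPB15 lists below an enrichment of 3, and 6.81%, 12.5%, 18.6% and 27.5% were in the next 4 bins, each below the share for both lists. The odds ratio within a bin was 2.64 below 3 and 2.50 from 3 to 4. It was then 1.64, 1.58 and 1.38 (1.02 to 1.87) up to an enrichment of 8. At 8 and above only 10 regions were in 1 list, so that the interval of 0.342 to 4.37 is too wide to read. The Mantel-Haenszel odds ratio over the 6 bins was 1.71 (1.55 to 1.89), against 3.08 with no bins. A separate count took strength from 1 replicate and kept only the regions listed in it, split by listing in the other replicate. It gave 2.99 over the 9440 regions of replicate 1 and 1.81 over the 13458 of replicate 2. Both cover other sets, so they do not compare with 1.71 or 3.08. In either line the bins of the highest enrichment match strength only in part, because a region in 1 list passed no limit in that line's other library.

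In SUPB15 too the share went up with strength and was higher for both lists than for 1 list in each bin. Among regions in both SUPB15 lists, 3.66% (2.15 to 6.16) below an enrichment of 3 were in both Nalm6 lists. The next bins gave 5.35%, 11.7%, 21.0% and 33.3%, and 41.7% (37.0 to 46.6) of the 405 regions at 8 and above were shared. For regions in 1 SUPB15 list the shares were 1.52%, 1.21%, 3.50%, 10.1% and 17.6% up to an enrichment of 8. The odds ratio was 2.47 below 3 and 4.595 from 3 to 4, then 3.67, 2.37 and 2.34 up to 8, with no steady fall as in Nalm6. The odds ratio over the bins was 3.49 (3.15 to 3.87), against 9.22 with no bins. The separate count over regions listed in a given replicate, binned by its strength, gave 4.11 for replicate 1 and 6.20 for replicate 2. These too cover other sets and do not compare with 3.49 or 9.22. Depth differed between the lines: at shared regions the median summit held 21 and 24 fragments in Nalm6, and 39 and 28 in SUPB15.

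**Figure D2:**
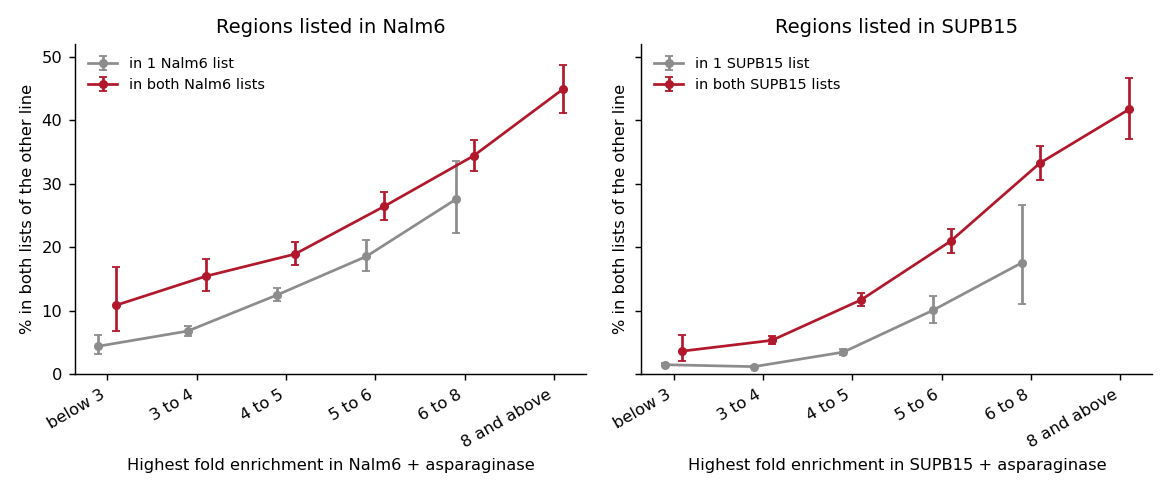
Share of free regions in both asparaginase lists of the other line (y axis, %) by the highest fold enrichment in the line named above each panel (x axis), for regions in 1 list (grey) and both lists (red). Bars are 95% Wilson intervals, and bins with fewer than 20 regions are not drawn. Shares for both lists climb from 10.9% to 44.9% in Nalm6 and from 3.66% to 41.7% in SUPB15, and the red points lie above the grey points in each bin with both.

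Bins over all 4 asparaginase lists together were made by the highest value, and the rise in share across them is partly built in. A shared region has 4 values from which the highest is taken. Of the regions below 3, 96.6% were in 1 list only, against 0.678% at 8 and above. No region with a highest enrichment below 3 was shared among 14340, which allows a share of up to 0.0209% (3 counts of the total). The share was 0.102% from 3 to 4, 1.37% from 4 to 5 and 8.0% from 5 to 6. It was 23.4% (21.9 to 25.05) of the 2728 regions from 6 to 8 and 40.7% (37.7 to 43.7) of the 1032 regions at 8 and above. Within these bins the odds ratio was below 1, from 0.861 (0.646 to 1.15) at 3 to 4 down to 0.0483 at 8 and above. The Mantel-Haenszel odds ratio over them was 0.317 (0.291 to 0.345). That direction is built in, since each region needs a peak of that strength in at least 1 line.

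Shared regions had somewhat higher enrichment than regions of 1 line, by description only. In Nalm6 with asparaginase their median enrichment was 5.30 in replicate 1 and 5.52 in replicate 2, with ranges of 2.31 to 20.5 and 2.19 to 20.5. In SUPB15 with asparaginase it was 5.07 and 4.46, with ranges of 2.33 to 14.7 and 2.37 to 11.2. The 3595 regions in both Nalm6 lists without a SUPB15 peak had medians of 4.52 and 4.65, and the 9609 in both SUPB15 lists without a Nalm6 peak had 3.85 and 3.65. All 4 medians of the shared regions thus lay above those of their line alone.

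The regions just outside the shared class lacked 1 list. At the 1066 regions in both SUPB15 lists and 1 Nalm6 list, the median was 4.36 in Nalm6 replicate 1 and 4.33 in replicate 2 where listed, and 4.71 and 4.09 in SUPB15. At the 1074 regions in both Nalm6 lists and 1 SUPB15 list it was 4.91 and 5.10 in Nalm6, and 3.53 and 3.86 in SUPB15 where listed. The lone list of a line was below the median of the shared regions in both cases. Inside the class, the lowest of the 4 enrichments was below 3 at 136 regions, from 3 to 4 at 702 and from 4 to 5 at 549. It was 8 or more at 8 regions.

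The 12 strongest shared regions, ranked by the lowest of their 4 enrichments, were well above the background in each library. The region at chr3:34152249-34153025 led the ranking. In Nalm6 67 and 77 fragments were piled up at its summit, 30.3 and 33.0 times the genome background. SUPB15 had 76 and 65 fragments there, 18.1 and 16.6 times the background. The 4 summits lay within 17 bp of each other, and the nearest region with an untreated peak was 81.9 kb away.

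The second region, chr4:59600391-59600882, had 45 and 44 fragments in Nalm6, beside 54 and 42 in SUPB15. Its −log10 q was 29.4 and 27.0 in the Nalm6 libraries, beside 37.0 and 25.2 for SUPB15, and the summits lay within 26 bp. It was the farthest of the 12 from an untreated peak, at 189.9 kb. The third, chr1:224811318-224812118, had 30 and 28 fragments in Nalm6 but 160 and 111 in SUPB15. Its enrichments were close to each other all the same, at 9.12 and 8.71 for Nalm6 against 9.16 and 8.71 for SUPB15. Against the genome background it stood at 13.6 and 12.01 in the Nalm6 libraries, and at 38.2 and 28.3 in the SUPB15 libraries. The local background of SUPB15 was thus high there, and the constant added in the enrichment lowers the Nalm6 values more.

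At chr7:76108740-76109549 the lines differed in enrichment. Nalm6 had enrichments of 20.5 in both libraries and SUPB15 9.83 and 8.32. The summits of all 4 libraries fell within 11 bp, the closest of the 12. Rank 5, chr17:35725520-35726071, had 71 and 80 fragments in Nalm6 against 95 and 71 in SUPB15, and an untreated peak lay 4.48 kb away.

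Ranks 11 and 12 were chr10:89260341-89260849 and chr16:68626478-68627168. The former had enrichments of 9.88 and 11.5 in Nalm6 against 8.52 and 7.63 in SUPB15, with an untreated peak 3.22 kb away. The latter had 11.0 and 9.76 in Nalm6 against 8.18 and 7.62 in SUPB15, and its nearest untreated peak was 51.2 kb away. The other 5 were chr2:18266718-18267249, chr3:59545372-59545979, chrX:44087695-44088162, chr22:21307963-21308871 and chr2:134433779-134434487.

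**Figure D3:**
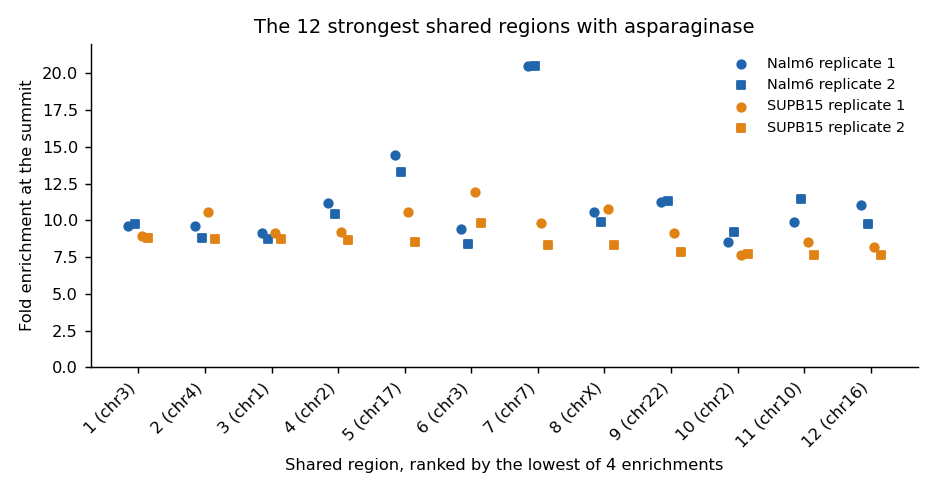
Fold enrichment at the summit (y axis) in the 4 asparaginase libraries for the 12 shared regions with the highest value of the lowest enrichment (x axis, rank and chromosome). Each point is 1 library; circles are replicate 1 and squares replicate 2. Region 7 stands out with 20.5 in both Nalm6 libraries against 9.83 and 8.32 in SUPB15.

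The strongest regions of 1 line reached high enrichments without any peak in the other. Of those in Nalm6, chr15:49550384-49551033 led with enrichments of 14.5 and 13.8 and with 60 and 56 fragments. At chr17:76028870-76029548 they were 11.95 and 12.6, and at chr16:33075919-33076597 they were 12.7 and 11.8. Of those in SUPB15, chr6:102335506-102335873 led with 14.1 and 11.97 and with 72 and 58 fragments. At chr21:25303870-25304494 the values were 13.1 and 11.6, and at chr10:114350481-114351043 they were 11.2 and 11.4. Strength in a line did not bring a peak in the other at all of its best sites. Among the strongest 635 regions in both Nalm6 lists, whose lower enrichment was at least 6.72, 38.1% had no SUPB15 peak. Among the strongest 1236 in both SUPB15 lists, from 5.07, 48.7% had no Nalm6 peak.

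Of the 3 weakest shared regions, 1 was chr1:65187225-65187794 and the others lay on chromosome 8. On chromosome 1 the enrichments were 2.40 and 2.19 in Nalm6 against 4.22 and 4.79 in SUPB15. The low values in Nalm6 rested on 62 and 63 fragments, 28.1 and 27.0 times the genome background, so that the local background was high there.

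Strength ranked the shared regions alike within a line and much less so between lines. Spearman's rho of the enrichments over the 1678 regions was 0.72 between the Nalm6 libraries and 0.69 between the SUPB15 libraries. Between a Nalm6 and a SUPB15 library it was 0.20 to 0.22. These values are across regions that had to pass a limit in each list, and regions are not replicates. Of the strongest 168 shared regions of each line, 35 (20.8%) were the same. At 720 regions (42.9%) both Nalm6 enrichments were above both SUPB15 enrichments, and at 282 (16.8%) the reverse held. At the other 676 the libraries of the lines overlapped. At genome background the lists began at 4.53 and 3.86 times that background in Nalm6, and at 2.86 and 3.06 in SUPB15. A shared region there needed a higher enrichment in Nalm6 to be listed, so these counts do not compare binding between the lines.

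**Figure D4:**
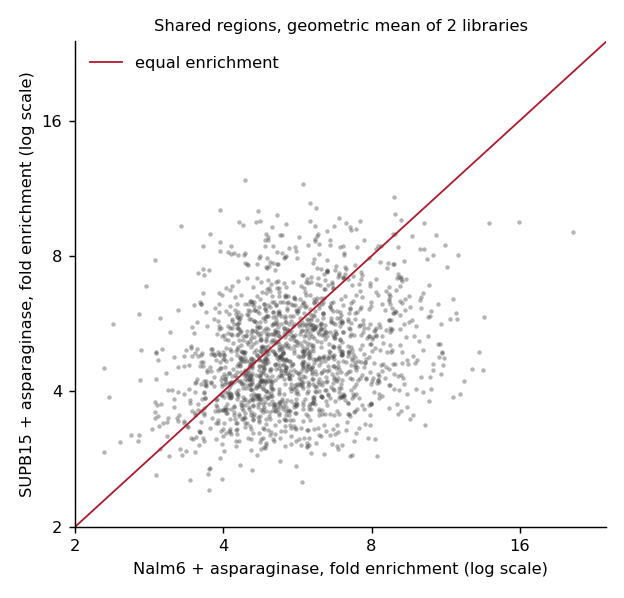
Geometric mean of the fold enrichment in the 2 Nalm6 (x axis) and the 2 SUPB15 (y axis) asparaginase libraries, both on log scales, for the 1678 shared regions (points). The line marks equal enrichment. The points form a broad cloud, more of them below the line, and rho between single libraries of the lines is 0.20 to 0.22. At genome background the limit for listing was higher in Nalm6.

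Summit positions were not used by the rule beyond the overlap of the peaks. The median distance between the summits of a Nalm6 and a SUPB15 library was 37 to 48 bp over the 4 pairs. Between replicates it was 34 bp in Nalm6 and 31 bp in SUPB15. Summits lay within 50 bp of each other at 52.3% to 60.0% of the shared regions between lines, at 64.5% in Nalm6 and at 67.7% in SUPB15. All 4 summits fell within 100 bp at 999 regions (59.5%). Overlap bounds these distances, since the shared regions had a median width of 499.5 bp.

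Stronger shared regions had closer summits. Where the lowest enrichment was below 3, the median distance between lines was 51.5 to 67 bp over the 4 pairs. From 6 to 8 it was 27 to 31 bp. Within lines it was 34.5 to 48.5 bp and 18 to 29 bp in the same bins. The gap between the lines and the replicates was thus smaller from 6 to 8 than below 3, as all distances shrank. It did not narrow at each step: from 5 to 6 the medians were 27 to 35.5 bp between lines and 23 to 31 bp within lines.

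**Figure D5:**
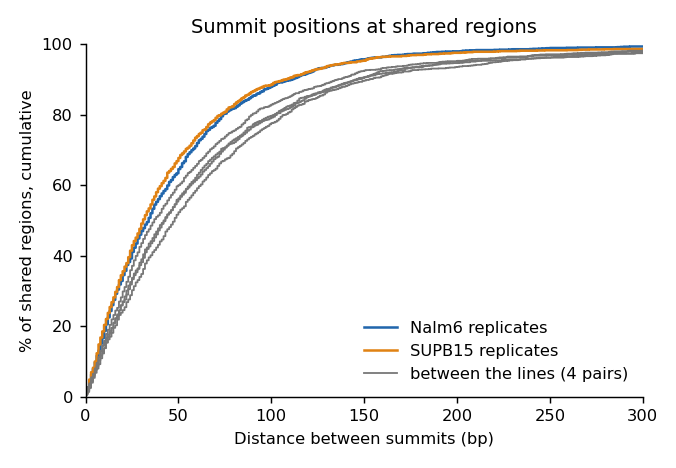
Cumulative share of the 1678 shared regions (y axis, %) by the distance between the summits of 2 libraries (x axis, bp), for the replicates of each line (blue, orange) and for the 4 pairs between lines (grey). The grey curves run a little below the coloured ones, with medians of 37 to 48 bp against 34 and 31 bp.

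Of the shared regions, 723 (43.1%) lay within 10 kb of a region with an untreated peak. That share was 44.6% for regions in both Nalm6 lists without a SUPB15 peak and 36.3% for regions in both SUPB15 lists without a Nalm6 peak. For regions in a single Nalm6 list and no other it was 48.3%, and for those in a single SUPB15 list and no other 28.0%. The median distance of shared regions to the nearest region with an untreated peak of either line was 13.0 kb, and 8.58% (7.33 to 10.0) lay within 1 kb. For regions in both Nalm6 lists without a SUPB15 peak these values were 12.2 kb and 11.5% (10.5 to 12.6). For regions in both SUPB15 lists without a Nalm6 peak they were 17.5 kb and 7.07% (6.57 to 7.60). Regions in a single Nalm6 list and no other lay within 1 kb of an untreated peak at 17.6% (16.8 to 18.5), and those in a single SUPB15 list and no other at 5.57% (5.39 to 5.75). Shared regions were also wider, at a median of 499.5 bp against 386 and 381 bp for regions of 1 line, and merging more lists widens a region.

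The absence of an untreated peak is not a level of 0. At genome background the untreated lists began at 3.37 and 3.94 times that background in Nalm6 and at 3.43 and 3.33 times in SUPB15. For each shared region this limit was recomputed at the local background that the asparaginase libraries showed there. The lower asparaginase summit reached the limit of both untreated libraries at 1678 regions in Nalm6 and at 1638 (97.6%) in SUPB15. It was at least 1.5 times the limit in each line at 748 regions (44.6%), and at least 2 times at 168 (10.0%). Taken singly, 691 regions (41.2%) were at least 2 times the limit in Nalm6 and 295 (17.6%) in SUPB15. Binding below these limits would not be listed. The asparaginase lists themselves began at 4.53 and 3.86 times the genome background in Nalm6 and at 2.86 and 3.06 in SUPB15. Listing in Nalm6 thus largely fixed that the untreated limit was reached, and these shares cannot be compared between the lines.

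The chromosomes took different parts in the 2 lines. Chromosome 8 held 2517 or 20.4% of the regions in both SUPB15 lists, but 261 or 4.11% of those in both Nalm6 lists and 77 or 4.59% of the shared ones. There, 3.06% (2.45 to 3.81) of the SUPB15 regions were shared, against 29.5% (24.3 to 35.3) of the Nalm6 regions. Chromosome 1 held 1576 SUPB15 regions, of which 10.1% (8.70 to 11.7) were shared. Chromosomes 1 and 8 were chosen because earlier counts had singled them out, and copy number was not measured. Without them 17.5% (16.7 to 18.3) of the SUPB15 regions and 26.4% (25.2 to 27.6) of the Nalm6 regions were shared.

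Among the remaining chromosomes the share of Nalm6 regions that were shared was highest on chromosome 19, at 36.1% (29.0 to 43.8) of 158. It was lowest on chromosome Y, with 1 of 14, and was 17.1% on both chromosome 14 and chromosome X. For SUPB15 the highest share was on chromosome X, where 28 of 82 regions or 34.1% (24.8 to 44.9) were shared, followed by chromosomes 16 (26.7%) and 19 (26.0%).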

How the data were processed

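Peak lists of 8 ATF4 libraries were used, 1 list per library, each made with 5 ug of antibody. BWA, MACS2 and DiffBind and the build hg19 are named in the submitters' processing notes; for versions, options and a control library, nothing was given in the sources used here. The deposited fold enrichment is a ratio of summit pileup to local background from the authors' peak calling, solved here with 1 added to each. That addition lowers the ratio more where the background is low. Values given as times the genome background carry no such addition. The deposited −log10 p and −log10 q values come from the same caller. Groups and replicate numbers come from the titles.

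Peaks sharing 1 bp were merged with Python 3.11.15, numpy 2.4.6, pandas 2.3.3 and scipy 1.17.1. In a region with several peaks of a library the highest enrichment was kept. Fragment numbers at the summit were solved from fold and −log10 p (tolerance 0.001), which succeeded for 99.991% of the asparaginase peaks. The lowest background of a list served as its genome background and relative depth. The limit of an untreated list was the pileup that reaches its lowest −log10 p at the higher local background of the line's asparaginase libraries. Counts and odds ratios were checked on simulated lists.

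Named were the 12 strongest shared regions, the 3 weakest, and the 3 strongest of each line without a peak of the other; coordinates on chromosome 8 are left out. The regions and comparisons were chosen with earlier results of these data known. Alternatives were stricter q, equal list lengths, summits, width, chromosomes, tiles, bins and left-out libraries. Strength from a single replicate was added after seeing the data.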

Additional observations from a re-analysis of the deposited data

How the results depend on the processing

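Of 85 odds ratios under alternatives, 81 were above 1, and the other 4 all concern the set of all free regions. The 85 largely recount the same regions. They leave out the bins over all 4 asparaginase lists together, where the Mantel-Haenszel odds ratio was 0.317 (0.291 to 0.345). With −log10 q of at least 5 for asparaginase peaks, 1039 regions were shared, and the odds ratio was 2.73 over Nalm6-listed, 6.48 over SUPB15-listed and 1.71 over all free regions. With at least 10 these values were 266, 1.76, 3.20 and 0.822, and the odds ratio was 1.57 over regions listed in each line and 3.03 within SUPB15 strength bins. With at least 10 in all lists, 978 regions were shared, and the odds ratio was 3.14 over SUPB15-listed and 0.990 over all free regions, and 1.92 and 2.64 within Nalm6 and SUPB15 bins. Equally long asparaginase lists (41213 peaks) gave 7.90 over SUPB15-listed and 1.81 over all free regions. Summits with 100 bp on each side gave 3.56, 10.2 and 2.57 over Nalm6-listed, SUPB15-listed and all free regions, and 1.92 and 4.21 within bins. Without chromosomes 1 and 8 the values were 10.8 over SUPB15-listed, 2.80 over all free regions and 3.99 within SUPB15 bins. Tiles of 1 kb gave 102. Stricter thresholds leave fewer peaks to count; the cause of the other moves was not tested.

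Strength from asparaginase replicate 1 alone, added later, gave 2.99 within Nalm6 bins and 4.11 within SUPB15 bins, and replicate 2 alone gave 6.20 in SUPB15. These counts cover only regions listed in that replicate, split by listing in the other, so they do not compare with the main values. Without single libraries, shared regions numbered 1757 to 2572, the most without SUPB15 asparaginase replicate 2. Leaving out a list either requires 1 list less or bars fewer regions. The odds ratio was then 2.45 to 3.36 over Nalm6-listed, 7.66 to 10.2 over SUPB15-listed, 1.89 to 2.12 over regions listed in each line, and 1.52 to 1.82 and 3.21 to 3.58 within bins. Over all free regions it was 0.0876 to 2.67, with 0.162 without SUPB15 asparaginase replicate 1. A contrast of both lists with 1 has no value when a list of that line is left out. The median distance to an untreated peak was 28.0 kb with −log10 q of at least 10 in all lists. That setting leaves fewer untreated peaks and another set of 978 shared regions, and their parts were not separated.

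No paired analysis was possible because the results are counts of regions and come from no test over libraries. Depth was not made equal between libraries, and at genome background the lists begin at 2.86 to 4.53 times that background.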
